A study of Mus musculus with 11 samples.

Results

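The genes described here are 10 markers of astrocytes, the glial cells that ensheath synapses and blood vessels in the brain: Gfap, Aqp4, Gja1, Gjb6, Slc4a4, Mlc1, Ndrg2, Acsbg1, Ntsr2 and Aldh1l1. They were taken by name from a table of ribosome footprint counts, in which each gene stands for 1 of its transcripts, the one with most counts over all libraries. All 10 were found among the 4338 genes of the table, and all 10 were among the 3835 genes tested. A ribosome footprint is the stretch of an mRNA covered, and so kept from digestion, by a ribosome, and a footprint count follows both how much of a transcript is present and how often it is translated; the data do not separate these. In tissue, fewer astrocytes and fewer footprints per astrocyte cannot be told apart either.

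All libraries came from cortex of wild-type C57BL6 mice aged 7 to 8 weeks. The ipsilateral group (replicates 2, 4, 5 and 6) is the hemisphere in which the right middle cerebral artery was blocked with a filament for 35 min, taken after 3 h of reperfusion. The contralateral group (replicates 1, 4, 5 and 6) is the opposite hemisphere of mice with the same occlusion and reperfusion. The sham group (replicates 1, 2 and 5) had anaesthesia and exposed arteries without a filament, and the side of its cortex is not stated. The replicate number names a day of surgery; whether an ipsilateral and a contralateral library of the same day came from the same animal, and whether animals were pooled, is not stated. The tissue entry of the 4 ipsilateral samples names the contralateral hemisphere, against their titles and descriptions, which were followed.

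Astrocytes form a network joined by gap junctions, take up water, potassium, bicarbonate and glutamate through their membranes, and reach the vessel wall with endfeet rich in water channels. After injury they become reactive over hours to days, and a rise of the filament protein encoded by Gfap is the best known sign of it. In healthy mouse cortex many grey matter astrocytes hold little of this filament, and those of white matter and of the brain surface hold more. The 10 genes cover several of these roles: a cytoskeletal filament (Gfap), a water channel (Aqp4), the connexins of astrocyte gap junctions (Gja1 and Gjb6), a sodium bicarbonate cotransporter (Slc4a4), a membrane protein of astrocyte junctions (Mlc1), a neurotensin receptor (Ntsr2), and 3 intracellular proteins, Ndrg2, Acsbg1 and Aldh1l1. The proteins of Gfap, Ndrg2, Acsbg1 and Aldh1l1 are not membrane channels, transporters or receptors, so the genes are better described as astrocyte markers than as membrane genes.

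Library totals were 35068 to 137341 counts for ipsilateral, 137372 to 571351 for contralateral and 64460 to 256657 for sham cortex, so the ipsilateral libraries were the shallowest group. Ipsilateral replicate 4 (35068 counts) and sham replicate 2 (64460 counts) were the shallowest libraries. The 10 genes together held 114 to 529 counts in ipsilateral, 489 to 1789 in contralateral and 227 to 737 in sham libraries, which was 0.321% to 0.385%, 0.313% to 0.376% and 0.287% to 0.352% of the library. Levels below are CPM, counts scaled to a common library total, after TMM scaling, which corrects the totals for differences in composition; log2 changes, their standard errors (SE) and p-values come from the edgeR quasi-likelihood fit of all 3835 genes, with p-values adjusted by Benjamini-Hochberg over all of them.

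The table lists counts per transcript, and for Gfap and Slc4a4 the listed transcripts differ in the end of the coding sequence, where the encoded proteins differ. Gfap lies on chromosome 11 from 102887336 to 102900912 on the minus strand (mouse build GRCm38, mm10). Of its 2 listed transcripts, the one used here held 205 counts over all libraries and the other 193, so the first had 12 more, of which 3 lay in ipsilateral, 7 in contralateral and 2 in sham libraries. The excess was between 0 and 3 counts in each library, which is too few to compare the forms between groups.

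Slc4a4 lies on chromosome 5 from 88886818 to 89239653 on the plus strand. Its transcript ENSMUST00000156238 skips an exon of 97 bases (chr5:89232764-89232860) that ENSMUST00000148750 contains, and the reading frame downstream differs, so that the encoded cotransporter has another tail. The coding ends, from the GENCODE vM21 transcripts, are shown because the encoded tails of the cotransporter differ there. Of the bases in capitals, 142 occur only in ENSMUST00000156238 and 97 only in ENSMUST00000148750; the others are in both, read in different frames, and cannot separate the forms in counts. Small letters are the last 12 shared coding bases, and capitals run from coding base 3100, the first that differs, to the stop codon; the capitals of ENSMUST00000156238 begin in chr5:89234797-89234876.
Slc4a4 ENSMUST00000156238: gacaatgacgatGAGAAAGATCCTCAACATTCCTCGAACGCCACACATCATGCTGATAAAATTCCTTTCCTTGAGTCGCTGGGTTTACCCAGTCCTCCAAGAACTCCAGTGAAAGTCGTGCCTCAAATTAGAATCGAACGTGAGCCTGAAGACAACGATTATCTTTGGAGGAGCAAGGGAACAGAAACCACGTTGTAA
Slc4a4 ENSMUST00000148750: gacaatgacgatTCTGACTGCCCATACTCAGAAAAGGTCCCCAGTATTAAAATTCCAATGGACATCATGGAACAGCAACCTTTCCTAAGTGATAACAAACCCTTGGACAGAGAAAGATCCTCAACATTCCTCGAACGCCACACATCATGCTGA
The transcript without the exon held 546 counts and ENSMUST00000148750 held 523. The excess was 23 counts, with 6 in ipsilateral, 11 in contralateral and 6 in sham libraries. It was between 0 and 4 counts in each library, which is too few to compare the forms between groups. Slc4a4 has 4 listed transcripts, and ENSMUST00000113218 held 522 counts. A further transcript, ENSMUST00000130041, whose coding sequence also starts differently, held 450 counts, or 82.4% of the highest. For Mlc1 and for Aldh1l1 the 2 listed transcripts had identical counts in every library, and for Ndrg2 they differed by 6 of 2762 counts.

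The other genes lie on chromosome 18 (Aqp4, 15389496 to 15410982), chromosome 10 (Gja1, 56377330 to 56402513), chromosome 14 (Gjb6, 57123303 to 57133611, and Ndrg2, 51905271 to 51914158), chromosome 15 (Mlc1, 88955884 to 88979007), chromosome 9 (Acsbg1, 54604877 to 54661870), chromosome 12 (Ntsr2, 16653382 to 16660227) and chromosome 6 (Aldh1l1, 90486427 to 90600203). Of the distinct 28-nt words of the transcripts, 0.676% for Ndrg2 and 0.179% for Aqp4 also occur in transcripts of other genes, and none of the other 8 genes shares any. Aldh1l1 overlaps the oppositely oriented Gm15756 over 106 of its 3052 transcript bases, and whether the authors' counting used strand is not given in the sources used here.

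Per kilobase of coding sequence, Ndrg2, which encodes a cytoplasmic protein of the N-myc downstream-regulated family, had the highest footprint level of the 10. It averaged 1202 ± 234 CPM per kb in ipsilateral, 1246 ± 151 in contralateral and 1279 ± 203 in sham cortex (SD, n = 4, 4 and 3), and it lay above the next gene, Gja1, in 11 of 11 libraries. Over all libraries, 97.5% of the 3782 tested genes with a coding length had a lower mean level per kb. Gja1 followed at 370 ± 78.9 CPM per kb over the 11 libraries (SD), then Mlc1 at 242 ± 63.8, Acsbg1 at 172 ± 22.7 and Aqp4 at 148 ± 27.4, and each of these 4 lay above its successor in 9 or 10 of 11 libraries.

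The next 4 genes were close together, Ntsr2 at 105 ± 33.1, Gjb6 at 95.8 ± 31.1, Gfap at 90.8 ± 45.1 and Slc4a4 at 84.3 ± 14.6 CPM per kb. Ntsr2 was above Gjb6 in 6 of 11 libraries, Gjb6 above Gfap in 7 and Gfap above Slc4a4 in 5, so their order was not stable between libraries. Aldh1l1, a folate-metabolising enzyme, was lowest at 63.2 ± 12.7, below Slc4a4 in 10 of 11. Gfap thus stood near the middle of all tested genes, with 51.9% of them lower. Its place among the 10 was 6 in ipsilateral, 9 in contralateral and 10 in sham cortex.

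**Figure D1:**
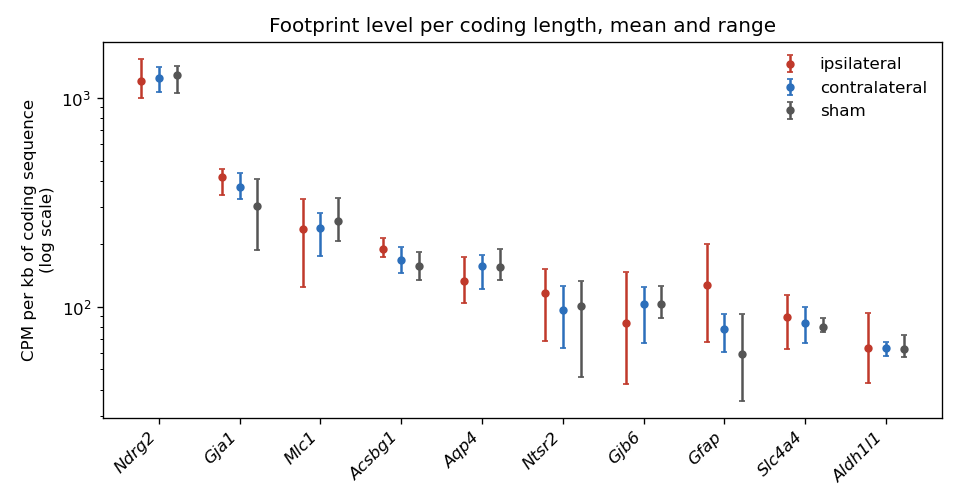
CPM per kb of coding sequence (log scale) for the 10 genes, in order of the mean over all libraries; points are group means and bars run from the lowest to the highest library (4 ipsilateral, 4 contralateral, 3 sham). Ndrg2 stands apart from the rest in all 3 groups, and the ranges of Ntsr2, Gjb6, Gfap and Slc4a4 overlap.

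None of the 10 genes passed the edgeR test in any comparison. In ipsilateral against contralateral cortex 0 of 10 were called, where 0.365% of all tested genes were, and 0 had an unadjusted p under 0.05, where 7.64% of all did. In ipsilateral against sham cortex 0 of 10 were called, against 0.104% of all genes, and 1, Gfap, had an unadjusted p under 0.05, against 7.72% of all. In contralateral against sham cortex 0 of 10 were called, against 0.0% of all genes, and 0 had an unadjusted p under 0.05, against 5.74% of all. DESeq2 and limma-voom also called 0 of the 10 in each comparison, but DESeq2 gave no adjusted p to Gjb6 in ipsilateral against contralateral cortex, nor to Gfap, Aqp4, Gjb6 and Ntsr2 in ipsilateral against sham. Every member's range over libraries overlapped between groups in every comparison, where 4.41%, 7.17% and 7.59% of all genes did not overlap. Ipsilateral and contralateral cortex are each set against the same sham libraries, so those comparisons are not independent.

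The median log2 change of the 10 genes was 0.09 in ipsilateral against contralateral cortex, with 6 above 0, and 0.10 in ipsilateral against sham, with 7 above 0. In contralateral against sham cortex it was 0.08, with 8 above 0. Over all tested genes the medians were 0.011, -0.0001 and -0.0011, and 51.3%, 50.0% and 49.9% of them were above 0. The summed level of the 10 genes was 3257 to 3850 CPM in ipsilateral, 3093 to 3850 in contralateral and 2817 to 3536 in sham libraries, with overlapping ranges.

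**Figure D2:**
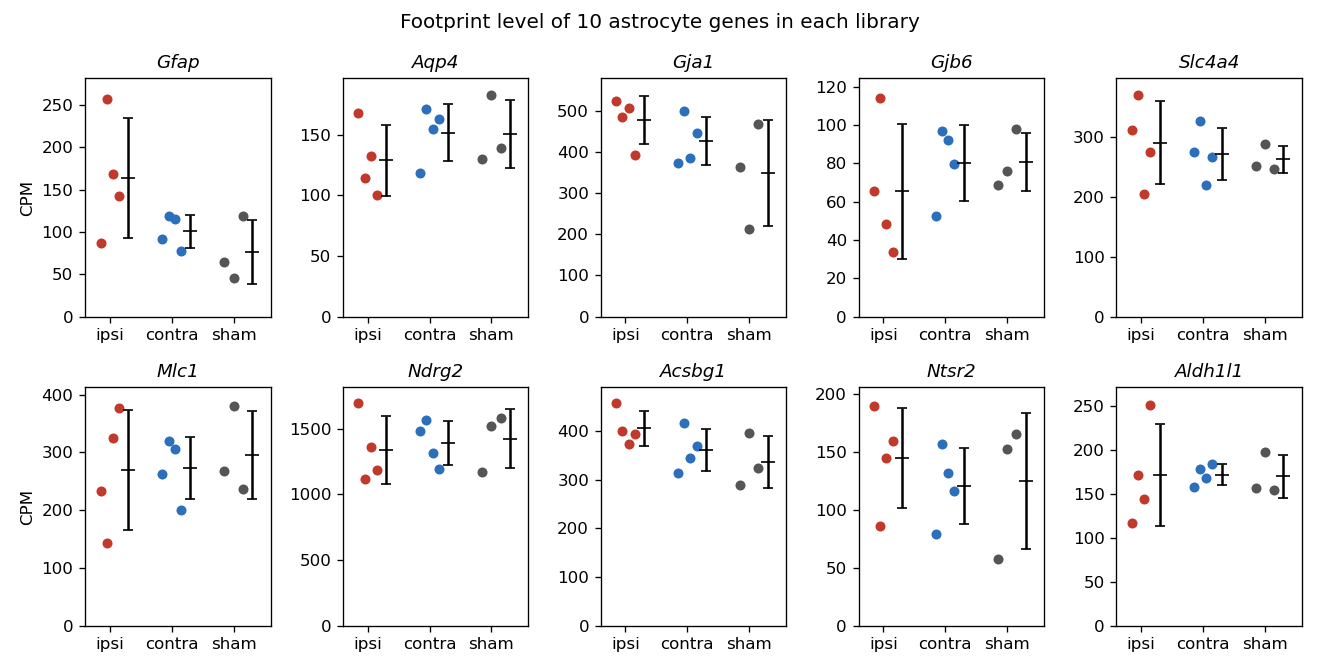
CPM of each of the 10 genes in each library, with ipsilateral libraries left, contralateral in the middle and sham right; the bar beside the points gives the mean and SD (n = 4, 4 and 3). Gfap has its highest 3 libraries in ipsilateral cortex and ipsilateral replicate 2, at 87.3 CPM, among the contralateral values.

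Gfap measured 87.3, 257, 169 and 142 CPM in ipsilateral replicates 2, 4, 5 and 6, from 12, 9, 14 and 17 counts. In contralateral replicates 1, 4, 5 and 6 it measured 91.8, 119, 115 and 77.8 CPM, from 14, 16, 35 and 45 counts, and in sham replicates 1, 2 and 5 it measured 65.0, 45.7 and 119 CPM, from 17, 3 and 23 counts. Ipsilateral replicates 4, 5 and 6 lay above every contralateral and sham library, whereas ipsilateral replicate 2 lay below 3 of the 4 contralateral libraries and below sham replicate 5.

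The means were 164 ± 70.8 CPM in ipsilateral, 101 ± 19.6 in contralateral and 76.4 ± 37.8 in sham cortex (SD, n = 4, 4 and 3). Ipsilateral against sham gave a log2 change of 0.78 ± 0.35 (SE), with an unadjusted 95% interval of 0.08 to 1.49, an unadjusted p of 0.0299 and an edgeR adjusted p of 0.570. A log2 change of at least this size in either direction was found for 5.48% of all tested genes. Ipsilateral against contralateral gave 0.55 ± 0.30, with an interval of -0.05 to 1.16 and an adjusted p of 0.684 in edgeR, and 11.8% of all genes changed by at least as much. Contralateral against sham gave 0.23 ± 0.32, with an interval of -0.40 to 0.87 and an adjusted p of 0.976 in edgeR, and 39.2% of all genes changed by at least as much. Gfap therefore did not pass in any comparison, and changes of up to 2.81-fold in ipsilateral over sham cortex lie within its interval.

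On days with a library of both groups, Gfap was higher in ipsilateral than in contralateral cortex in 3 of 3 pairs: 257 against 119 CPM on day 4, 169 against 115 on day 5 and 142 against 77.8 on day 6. Against sham it was higher in 2 of 2 pairs, with 87.3 against 45.7 CPM on day 2 and 169 against 119 on day 5. Contralateral and sham cortex shared days 1 and 5, with 91.8 against 65.0 and 115 against 119 CPM. Ipsilateral replicate 5 enters both ipsilateral comparisons. Against contralateral cortex, the members other than Gfap and Aqp4 had pairs of both signs. Against sham, Acsbg1 and Gja1 were also higher in 2 of 2 pairs, and Aqp4, Gjb6 and Aldh1l1 were lower in 2 of 2. The share of all tested genes with 1 sign in every pair was not computed. With the day as a block in the edgeR fit, the ipsilateral log2 change of Gfap was 0.77 against contralateral (unadjusted p = 0.0138, adjusted p = 0.493) and 0.88 against sham (unadjusted p = 0.0236, adjusted p = 0.750), still short of the threshold.

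The counts behind these values were small. The highest value, ipsilateral replicate 4, rested on 9 counts, and its exact (Clopper-Pearson) 95% interval ran from 117 to 487 CPM, before TMM scaling. The lowest, sham replicate 2, rested on 3 counts, with an interval of 9.60 to 136 CPM. These intervals cover counting error only. Without these 2 shallowest libraries the ipsilateral log2 change fell to 0.38 against contralateral and 0.52 against sham, and without sham replicate 5 it was 1.22 against sham (adjusted p = 0.834, 0.819 and 0.454).

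**Figure D3:**
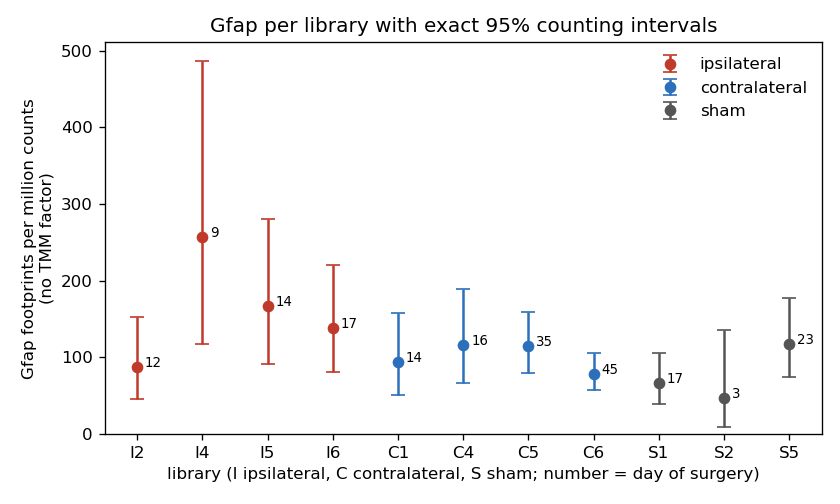
Gfap CPM in each library, without TMM scaling, with exact 95% counting intervals; the number beside a point is the count, and the library number is the day of surgery. The interval of ipsilateral replicate 4 (117 to 487) overlaps that of every other library except contralateral replicate 6 (57.5 to 105) and sham replicate 1 (38.6 to 106).

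As a share of the footprints of the 10 genes, which does not depend on the scaling of libraries, Gfap took 2.27%, 7.89%, 4.95% and 4.30% in ipsilateral replicates 2, 4, 5 and 6. It took 2.86%, 3.10%, 3.56% and 2.52% in contralateral replicates 1, 4, 5 and 6, and 2.31%, 1.32% and 3.35% in sham replicates 1, 2 and 5. This share was computed after the levels were seen and was not tested. Its pattern was that of the CPM values, with ipsilateral replicates 4, 5 and 6 highest and replicate 2 lowest of its group. Both rest on the same Gfap counts, so the likeness is no separate evidence.

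Summed levels of oligodendrocyte and microglia markers had higher means in the ipsilateral group and are given here beside Gfap. The summed level of the 11 oligodendrocyte markers in the table, of 20 in the list, was 3746 to 8136 CPM in ipsilateral, 3160 to 4207 in contralateral and 3098 to 3656 in sham libraries. In ipsilateral replicates 2, 4, 5 and 6 the oligodendrocyte level was 8136, 6628, 3746 and 4932 CPM, beside Gfap at 87.3, 257, 169 and 142 CPM. Replicate 2 thus had the highest oligodendrocyte level with the lowest Gfap, whereas replicate 4 had the highest Gfap with the second highest oligodendrocyte level. The 11 microglia markers found, of 20, summed to 1747 to 2303 CPM in ipsilateral, 1358 to 1608 in contralateral and 1097 to 1361 in sham libraries, with no overlap of the ipsilateral group with the others; the defining genes Tmem119 and Aif1 were not analysed here. The part of these cells in the Gfap values was not tested.

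Neither connexin gene passed the test, and their ipsilateral log2 changes had opposite signs. Gja1, which encodes the main gap junction protein of astrocytes, measured 524, 486, 506 and 394 CPM in ipsilateral replicates 2, 4, 5 and 6, 374, 499, 385 and 446 CPM in contralateral replicates 1, 4, 5 and 6, and 363, 213 and 469 CPM in sham replicates 1, 2 and 5. The ipsilateral libraries were mostly at the upper end of the other groups, and sham replicate 2 was lowest with 14 counts. Its log2 change was 0.37 ± 0.21 in ipsilateral against sham (interval -0.06 to 0.80, edgeR adjusted p = 0.729), 0.16 ± 0.19 against contralateral (-0.22 to 0.55, adjusted p = 0.911) and 0.21 ± 0.20 in contralateral against sham (-0.20 to 0.61, adjusted p = 0.964). Single sham libraries decided its size: in ipsilateral against sham it was 0.19 without sham replicate 2 and 0.62 without sham replicate 5 (adjusted p = 0.912 and 0.593 in edgeR).

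Gjb6, the second astrocyte connexin gene, measured 65.5, 114, 48.2 and 33.5 CPM in ipsilateral replicates 2, 4, 5 and 6, from 9, 4, 4 and 4 counts. In contralateral replicates 1, 4, 5 and 6 it measured 52.5, 96.8, 92.1 and 79.5 CPM, and in sham replicates 1, 2 and 5 it measured 68.8, 76.2 and 97.9 CPM. Ipsilateral replicates 5 and 6 lay below every other library, while ipsilateral replicate 4 was the highest of all. The log2 change was -0.52 ± 0.36 in ipsilateral against contralateral (interval -1.24 to 0.20, edgeR adjusted p = 0.755), -0.52 ± 0.40 against sham (-1.32 to 0.29, adjusted p = 0.825) and 0.003 ± 0.30 in contralateral against sham (-0.60 to 0.60, adjusted p = 1.00). Without ipsilateral replicate 6 the ipsilateral log2 change was -0.28 against contralateral and -0.27 against sham.

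Of the footprints of both connexin genes, Gjb6 took 11.1%, 19.0%, 8.70% and 7.84% in ipsilateral replicates 2, 4, 5 and 6, 12.3%, 16.2%, 19.3% and 15.1% in contralateral replicates 1, 4, 5 and 6, and 15.9%, 26.3% and 17.3% in sham replicates 1, 2 and 5. The share was below every contralateral and sham library in ipsilateral replicates 2, 5 and 6, and within their range in replicate 4. In ipsilateral replicates 2, 4, 5 and 6 it came from 9 of 81, 4 of 21, 4 of 46 and 4 of 51 counts. The exact intervals were 5.21% to 20.05%, 5.45% to 41.9%, 2.42% to 20.8% and 2.18% to 18.9%, so all 4 were wide. The connexin share was computed after the levels were seen and was not tested.

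Aqp4, the water channel of astrocyte endfeet, measured 167, 114, 132.5 and 100.5 CPM in ipsilateral replicates 2, 4, 5 and 6. It measured 118, 171, 154.5 and 162.5 CPM in contralateral replicates 1, 4, 5 and 6, and 130.0, 183 and 139 CPM in sham replicates 1, 2 and 5. Ipsilateral replicates 4 and 6 lay below all libraries of the other groups, and ipsilateral replicate 2 lay among the highest. The log2 change was -0.21 ± 0.25 in ipsilateral against contralateral (interval -0.72 to 0.30, edgeR adjusted p = 0.914), -0.10 ± 0.28 against sham (-0.68 to 0.47, adjusted p = 0.991) and 0.11 ± 0.24 in contralateral against sham (-0.37 to 0.59, adjusted p = 1.00). In ipsilateral against contralateral it was -0.45 without ipsilateral replicate 2, -0.07 without ipsilateral replicate 6 and -0.42 with the day as a block (adjusted p = 0.753, 0.9995 and 0.811 in edgeR). On shared days Aqp4 was lower in ipsilateral than in contralateral cortex in 3 of 3 pairs, with differences in log2 CPM of -0.64 to -0.21, and lower than in sham in 2 of 2, with -0.12 and -0.07. How often all tested genes had 1 sign in every pair was not computed.

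Slc4a4, the electrogenic sodium bicarbonate cotransporter through which astrocytes take part in the control of pH, showed little difference between groups. It ranged from 205 to 371 CPM in ipsilateral, 220 to 328 in contralateral and 247 to 289 in sham libraries. The log2 change was 0.08 ± 0.21 in ipsilateral against contralateral, 0.13 ± 0.24 against sham and 0.05 ± 0.22 in contralateral against sham, with intervals inside -0.39 to 0.61.

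Mlc1, whose human counterpart is mutated in a leukoencephalopathy with cysts and a swollen brain, ranged from 143 to 377 CPM in ipsilateral, 201 to 320 in contralateral and 237 to 381 in sham libraries. The ipsilateral libraries spanned nearly the whole range of the others, with replicate 4 lowest on 5 counts and replicate 6 highest of the group. Its log2 change was 0.10 ± 0.23 in ipsilateral against contralateral, 0.02 ± 0.26 against sham and -0.08 ± 0.24 in contralateral against sham.

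Ntsr2, a neurotensin receptor gene, ranged from 85.7 to 189 CPM in ipsilateral, 78.7 to 156 in contralateral and 57.3 to 165 in sham libraries. The lowest sham value was that of replicate 1, and without that library the ipsilateral log2 change against sham moved to -0.04, against 0.47 ± 0.33 with all libraries (edgeR adjusted p = 0.800). Against contralateral cortex the ipsilateral log2 change was 0.39 ± 0.29 (adjusted p = 0.786 in edgeR), and contralateral against sham gave 0.08 ± 0.30. With the day as a block the ipsilateral value was 0.13 against contralateral and 0.11 against sham, and without sham replicate 5 it was 0.95 against sham (adjusted p = 0.973, 0.986 and 0.618 in edgeR).

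Among the intracellular proteins, Ndrg2 had the most counts and so the narrowest intervals. It measured 1696, 1114, 1361 and 1181 CPM in ipsilateral replicates 2, 4, 5 and 6, 1482, 1564, 1312 and 1191 CPM in contralateral replicates 1, 4, 5 and 6, and 1166, 1523 and 1583 CPM in sham replicates 1, 2 and 5. Its log2 change was -0.03 ± 0.15 in ipsilateral against contralateral (interval -0.33 to 0.28), -0.06 ± 0.17 against sham (-0.40 to 0.27) and -0.04 ± 0.16 in contralateral against sham (-0.36 to 0.29). For this gene, ratios of ipsilateral to sham cortex below 0.759 or above 1.21 lie outside the unadjusted 95% interval.

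Acsbg1, an acyl-CoA synthetase of the bubblegum family, was the steadiest member, with a coefficient of variation of 13.2% over the 11 libraries, against 49.6% for Gfap. It ranged from 373 to 458 CPM in ipsilateral, 315 to 417 in contralateral and 290.5 to 396 in sham libraries. The log2 change was 0.18 ± 0.18 in ipsilateral against contralateral, 0.32 ± 0.21 against sham (interval -0.09 to 0.74, edgeR adjusted p = 0.755) and 0.14 ± 0.19 in contralateral against sham. Aldh1l1 averaged 171 ± 58.1 CPM in ipsilateral, 172 ± 11.6 in contralateral and 170 ± 24.5 in sham cortex (SD, n = 4, 4 and 3), with log2 changes of -0.02 ± 0.24, 0.07 ± 0.27 and 0.08 ± 0.23 in the same order of comparisons. Its group means were nearly equal, and its spread was widest in ipsilateral cortex, from 116 CPM in replicate 2 to 251 in replicate 6.

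**Figure D4:**
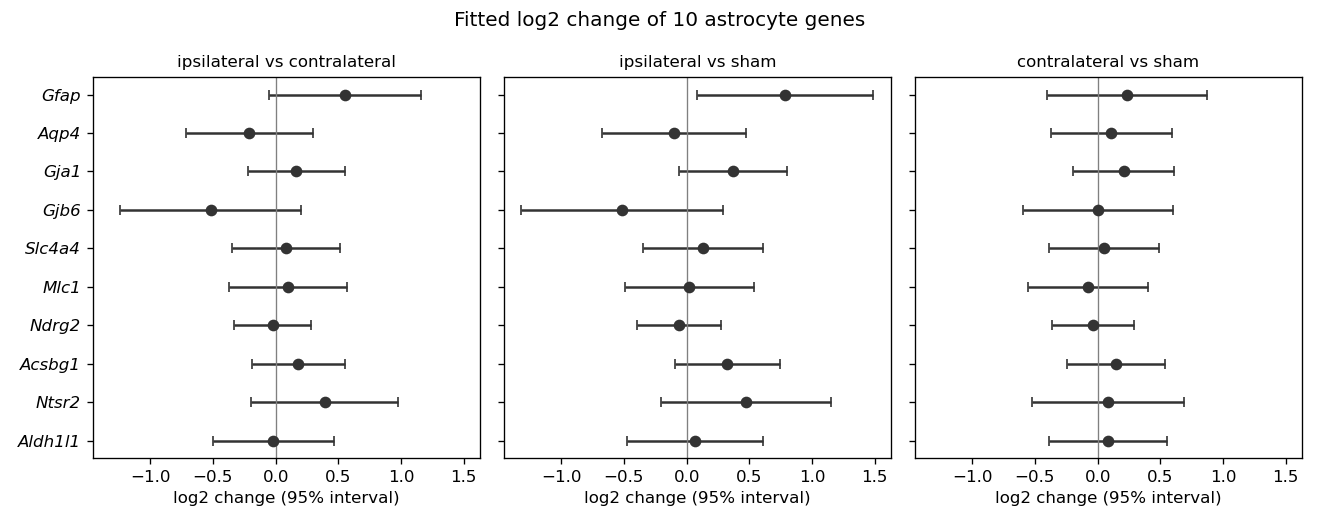
Fitted log2 change of each gene in the 3 comparisons, with unadjusted 95% intervals from the edgeR fit. Of the 30 intervals, only that of Gfap in ipsilateral against sham cortex (0.08 to 1.49) leaves out 0, and its adjusted p was 0.570.

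Across libraries the 10 genes did not vary as a block. Over the 45 pairs of genes, Pearson's r of log2 CPM (prior count 2) across the 11 libraries had a median of 0.07 and ran from -0.57 to 0.67, with 32 pairs above 0. The highest values were 0.67 for Acsbg1 with Ntsr2 and 0.66 for Gfap with Gja1, and the lowest was -0.57 for Gfap with Aqp4. The libraries differ in depth and share groups and days, so these values only describe them. Of all tested genes, those most like Gfap by this measure were Afg3l2, a subunit of a mitochondrial protease (r = 0.919), Cst3, a secreted protease inhibitor (0.911), and Slc39a12, a zinc transporter (0.897), over 11 libraries; without the 2 shallowest these were 0.735, 0.789 and 0.750 over 9.

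No gene of a longer astrocyte list was called either. Of a list of 55, which also holds genes that neurons express, such as Cpe, 45 were tested, and by edgeR 0 rose and 0 fell in each comparison. In ipsilateral against contralateral cortex 23 of the 45 were above 0, with a median log2 change of 0.02. In ipsilateral against sham 36 were, with a median of 0.15. In contralateral against sham 35 were, with a median of 0.21, against 0.08 for the 10 genes. Over all tested genes 51.3%, 50.0% and 49.9% were above 0, with medians of 0.011, -0.0001 and -0.0011 in the same order. Whether the list moved as a set was not tested. Their summed level was 48160 to 51170 CPM in ipsilateral, 45720 to 59520 in contralateral and 41750 to 51130 in sham libraries. Sparcl1, a secreted synapse-organising protein and the gene with most footprints in the list, measured 11360 ± 2029 CPM in ipsilateral, 11180 ± 1965 in contralateral and 9871 ± 2269 in sham cortex, and Cpe, a prohormone-processing enzyme, changed by -0.16 ± 0.13, 0.11 ± 0.14 and 0.27 ± 0.14 (log2, SE) in the 3 comparisons in the same order.

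In ipsilateral against contralateral cortex the largest log2 changes in that list were those of Mt2, a metal-binding stress protein, with 238 ± 121 CPM in ipsilateral and 119 ± 22.6 in contralateral libraries (0.95 ± 0.29, edgeR adjusted p = 0.207), and Tril, with 95.3 ± 42.7 and 46.2 ± 18.7 CPM (1.03 ± 0.43, adjusted p = 0.535). Against sham, ipsilateral Ednrb, an endothelin receptor gene, measured 114 ± 50.9 against 52.9 ± 19.6 CPM (1.08 ± 0.37, edgeR adjusted p = 0.353) and Slc6a11, a GABA transporter gene, 242 ± 140 against 138 ± 25.8 CPM (1.02 ± 0.32, adjusted p = 0.297). Contralateral Ednrb and S1pr1, a lipid receptor gene, changed by 0.75 ± 0.33 and 0.46 ± 0.24 against sham (adjusted p = 0.845 and 0.908 in edgeR). None of these genes passed the test.

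Of 26 genes of proteins known to work with the members' products in the membrane, such as the anchors of the water channel and the sodium pump, 17 were tested and by edgeR 0 rose and 0 fell. Their median log2 change was 0.07 in ipsilateral against contralateral, 0.14 in ipsilateral against sham and 0.07 in contralateral against sham. Among them Hepacam, Gpr37l1, Kcnj10 and Atp1b2 are in the longer astrocyte list as well. Kcnj10, the inward-rectifying potassium channel of astrocytes, measured 308 ± 64.6 CPM in ipsilateral and 186 ± 19.4 in sham cortex (log2 change 0.64 ± 0.25, edgeR adjusted p = 0.436). Slc12a2, a sodium, potassium and chloride cotransporter gene, measured 189 ± 69.3 CPM in ipsilateral, 115 ± 32.0 in contralateral and 104 ± 50.4 in sham cortex (0.88 ± 0.29 and 1.03 ± 0.33, adjusted p = 0.255 and 0.302 in edgeR). Gprc5b, an orphan receptor gene, measured 179 ± 37.5 against 103 ± 8.78 CPM in ipsilateral against contralateral cortex (0.77 ± 0.26, edgeR adjusted p = 0.309), and Adgrg1, an adhesion receptor gene, changed by -0.50 ± 0.27 in contralateral against sham. Atp1b1, a sodium pump subunit found mainly in neurons, had a log2 change of -0.08 ± 0.13 in ipsilateral against contralateral cortex.

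Genes that mark reactive astrocytes could mostly not be followed. Of 40 such genes, 4 were in the table and 3 were tested, Ptgs2, Fkbp5 and Stat3, and by edgeR 0 rose and 0 fell. The others, among them Vim, Nes, Lcn2 and Serpina3n, were not analysed here; each transcript in the table has at least 101 counts in sum. Ptgs2, an inducible prostaglandin synthase that neurons also express, measured 95.8 ± 40.6 CPM in ipsilateral, 48.2 ± 10.4 in contralateral and 103 ± 29.6 in sham cortex. Stat3, a transcription factor of the reactive response, changed by 0.55 ± 0.34 in ipsilateral against contralateral and 0.67 ± 0.40 against sham (edgeR adjusted p = 0.725 and 0.730), and Fkbp5, a glucocorticoid-induced gene, by -0.43 ± 0.35 and -0.35 ± 0.39.

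Markers of other cell types give the setting of these values. Neuron markers summed to 22780 to 26620 CPM in ipsilateral, 24280 to 28250 in contralateral and 24600 to 27100 in sham libraries, and 0 of the 21 tested passed in any comparison by edgeR. Of 11 tested oligodendrocyte markers, 4 rose in ipsilateral against contralateral cortex, among them Mbp, Mag and Cldn11, and 0 passed against sham by edgeR, where the list's median log2 change was 0.90. None of the 10 tested microglia markers passed by edgeR, with medians of 0.53 in ipsilateral against contralateral and 0.72 against sham. Of all tested genes 0.365% were called in ipsilateral against contralateral, 0.104% in ipsilateral against sham and 0.0% in contralateral against sham. At such shares, 0 calls in a list of this length say little about its genes. Oligodendrocyte precursor markers summed to 1036 to 1298, 1029 to 1452 and 944 to 1063 CPM in ipsilateral, contralateral and sham libraries. Of the endothelial and pericyte markers 2 of 20 were in the table, without the defining genes Cldn5 and Pecam1, and summed to 916 to 1340, 960.1 to 1243 and 923 to 1203 CPM in the same order.

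Meningeal and fibroblast markers (4 of 14 in the table) summed to 349 to 796 CPM in ipsilateral, 357 to 404 in contralateral and 310 to 397 in sham libraries. Of these markers 1, Prg4, rose in ipsilateral against sham cortex by edgeR. The defining genes Col1a1, Col1a2, Col3a1 and Lum were not analysed here, and Pdgfra is also in the oligodendrocyte precursor list. Blood markers (4 of 14, all of them globin genes) summed to 1013 to 1971, 551 to 967 and 868 to 1289 CPM, and 2, Hba-a1 and Hba-a2, which are near copies of each other, rose in ipsilateral against contralateral cortex by edgeR. None of the 12 choroid plexus and ependymal markers was in the table. The astrocyte genes were thus measured in samples in which neuron markers overlapped between groups and oligodendrocyte, microglia and blood markers were higher in ipsilateral than in contralateral libraries on the summed level, with an overlap for oligodendrocytes; the part of these differences in the astrocyte values was not tested.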

How the data were processed

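The libraries hold ribosome-protected fragments of mouse cortex: per the labels' protocols, tissue was digested with micrococcal nuclease, ribosomes were captured with an antibody to a large-subunit protein, and protected RNA was read as single ends on a MiSeq. The deposited table gives whole-number counts per Ensembl transcript, 1 column per library; per the submitters' processing notes Bowtie2, edgeR and mm10 were used, while for the counting tool, annotation release and strand setting the sources used here give nothing. Of 9784 transcripts, 9736 matched GENCODE vM21 by identifier; the other 48 (0.306% of counts) were left out. Transcripts of a gene often repeat the same counts (2218 do), so 1 transcript, that of the highest sum, was kept for each of 4338 genes.

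The main test was the quasi-likelihood F test of edgeR 4.0.16 (R 4.3.3), after filterByExpr with a minimum count of 10 (3835 genes kept, 503 removed), with TMM scaling and a robust fit of all 11 libraries without a block, with a threshold of 0.05 on Benjamini-Hochberg adjusted p. The common dispersion was 0.0291. SE is the log2 change divided by the root of the F value, and intervals use the fit's degrees of freedom. P-values measure the spread between libraries. The scripts were tested on simulated counts. Alternatives were DESeq2 1.42.0, limma-voom (limma 3.58.1), RLE factors, no filter, the transcript of median count, a day block, fits of 2 groups, each library or the 2 shallowest left out, and library totals alone, the last chosen after seeing the data.

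That replicate numbers pair libraries by day of surgery is stated in the series' design text. Deviations from group means correlated across genes at -0.139 to 0.224 (median 0.131) in the 7 same-day pairs across groups and at -0.255 to 0.260 (median -0.0300) in the 33 others.

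The 10 genes and the lists were chosen with earlier results of these data known. The text names the 10 genes; from the astrocyte, reactive and membrane partner lists the 2 genes of highest level and the 2 of largest log2 change in each comparison; called genes of all lists; and the 3 genes most like Gfap. Some items under this rule are not reported here.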

Additional observations from a re-analysis of the deposited data

Results flagged for a closer look

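Each of the 20 groups of 4 libraries (10 genes, ipsilateral and contralateral cortex) was searched for a library far from the others, by the gap to its nearest neighbour over the range of the group; 0 exceeded the critical value of 0.829, where chance gives about 1 in 20. The 3 sham libraries were not searched.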

How the results depend on the processing

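Depth limits the precision: 3 to 12 counts stand behind several values of Gfap, Gjb6, Ntsr2, Aqp4 and Mlc1 in the shallowest libraries. In all 20 alternatives 0 of the genes tested among the 10 were called in any comparison, and Gfap stayed above 0 in each. Log2 changes and numbers of called genes were scored together, and 655 of these results were labelled unchanged. For log2 changes this meant the same direction and side of the threshold, with a missing adjusted p taken as not passing. For numbers of called genes it meant an equal or similar number. With the replicate number (day) as a block, the Gfap log2 change was 0.77 in ipsilateral against contralateral, and no call on the 10 genes changed. With each library left out in turn Gfap ran from 0.38 to 0.80 in ipsilateral against contralateral, 0.55 to 1.22 in ipsilateral against sham and 0.013 to 0.68 in contralateral against sham. Acsbg1 fell below the count filter with the transcript of median count, and Gjb6 in the fit of ipsilateral and sham libraries alone, so neither has a value there.

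The number of genes called among all tested moved more. In ipsilateral against contralateral cortex it was 14, 7 without the 2 shallowest libraries, and 3 to 26 with a library left out (3 without ipsilateral replicate 2, 9 without replicate 4, 26 without replicate 5, 5 without contralateral replicate 1, 4 without replicate 6). In ipsilateral against sham it was 4, 10 by DESeq2, and 0 to 22 with a library left out (22 without ipsilateral replicate 5, 0 without sham replicate 1). In contralateral against sham it was 0 by edgeR, with 220 genes at an unadjusted p under 0.05, 2 by DESeq2, and 0 to 3 with a library left out (1 without ipsilateral replicate 6, 3 without sham replicate 5).

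Log2 changes changed sign in 49 cases, none past the threshold, and among them was Ntsr2 in ipsilateral against sham, at 0.47 with all libraries and -0.036 without sham replicate 1; the cause was not tested. In ipsilateral against contralateral cortex Ndrg2 was 0.026 by limma-voom, Aldh1l1 0.029 with the block, and Slc4a4 and Ndrg2 -0.0069 and 0.022 without the 2 shallowest libraries; with a library left out, Slc4a4 ran from -0.027 to 0.21, Mlc1 from -0.095 to 0.21, Ndrg2 from -0.19 to 0.050 and Aldh1l1 from -0.36 to 0.18. In ipsilateral against sham Mlc1 was -0.012 with library totals alone, Aldh1l1 -0.10 with the block, and Aqp4 and Ndrg2 0.0028 and 0.039 without the 2 shallowest; with a library left out, Aqp4 ran from -0.32 to 0.039, Mlc1 from -0.17 to 0.17, Ndrg2 from -0.21 to 0.029, Ntsr2 from -0.036 to 0.95 and Aldh1l1 from -0.28 to 0.28. In contralateral against sham Gjb6 was -0.021 by limma-voom, -0.00044 with no filter, -0.0056 with library totals alone, -0.12 with the block and -0.0015 without the 2 shallowest; with the block Slc4a4 was -0.027, Ndrg2 0.10, Ntsr2 -0.022 and Aldh1l1 -0.13, and without the 2 shallowest Mlc1 was 0.083 and Ndrg2 0.017. With a library left out, Gjb6 ran from -0.16 to 0.20, Slc4a4 from -0.021 to 0.15, Mlc1 from -0.20 to 0.082, Ndrg2 from -0.16 to 0.066 and Ntsr2 from -0.41 to 0.57.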
